A study of Homo sapiens and Mus musculus with 12 samples.

Results

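Immune checkpoint ligands are proteins on or from tumor cells that hold T cells, natural killer cells and macrophages back. The group described here is 10 genes chosen by symbol: CD274 (PD-L1), PDCD1LG2 (PD-L2), CD276 (B7-H3), VTCN1 (B7-H4), CD47, NT5E (CD73), ENTPD1 (CD39), PVR (CD155), NECTIN2 (CD112) and LGALS9 (galectin-9), with the mouse genes of the same symbols. All 10 were found among the 63677 gene identifiers counted in the human cells and all 10 among the 47729 counted in the mouse cells. The libraries came from a human triple-negative breast cancer line, MDA-MB-231, and a mouse mammary carcinoma line, 4T1, each with and without ponatinib. This drug is an inhibitor of several tyrosine kinases that the study brings forward as a blocker of the kinase p38α. Wild-type cells of each line were exposed for 24 h to 1 µmol/L ponatinib or to its solvent DMSO, with 3 libraries in each of the 4 groups and 12 in all. The cells grew alone in culture, without T cells, myeloid cells or a host, and the values are mRNA levels, not protein on the cell surface.

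PD-L1 and PD-L2 bind the receptor PD-1 on T cells and dampen signaling from the T cell receptor, and antibodies against PD-1 or PD-L1 are used to treat triple-negative breast cancer. PD-L1 is raised by interferon-γ, which acts through its receptor, the kinases JAK1 and JAK2 and the transcription factor IRF1, and growth factor signaling through the AP-1 proteins (JUN, FOS and FOSL1) can raise it as well. The other ligands use other receptors. CD47 binds SIRPα on macrophages and spares a cell from being engulfed. PVR and NECTIN2 bind the inhibitory receptor TIGIT, and NECTIN2 also binds the inhibitory receptor PVRIG. Galectin-9 binds TIM-3, and CD39 and CD73 together turn extracellular ATP into the immunosuppressive nucleoside adenosine.

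Total counts lay between 15012884 and 17301760 per library in MDA-MB-231 and between 17800675 and 18951493 in 4T1. Levels are given as CPM, the deposited counts of a gene as a rate of its library's total after TMM scaling, and changes as the log2 fold change of ponatinib over DMSO, with its standard error (SE). Each gene was tested within its line with the quasi-likelihood test of edgeR, and a gene was called at a p-value under 0.05 after Benjamini-Hochberg adjustment across the whole table. The lines are labelled as breast epithelial cells, and the keratin genes KRT8 and KRT18 stood at 889 and 117 CPM in the MDA-MB-231 controls and at 2386 and 3243 CPM in those of 4T1; the adhesion gene CDH1 had 1 count over all 6 libraries of MDA-MB-231 and 830 CPM in the 4T1 controls. Neither line carried a leukocyte profile. In 4T1, all 7 leukocyte markers, CD45 (Ptprc) among them, fell below the filter on low counts, and 4 of them were at 0 in every library. In MDA-MB-231, 6 of the 7 fell below it, PTPRC was at 0 in all 6 libraries, and the summed level of the 7 was 1.13 to 1.36 CPM with DMSO and 1.89 to 2.80 CPM with ponatinib, the receptor gene CSF1R being the one that was tested and rose, having passed the filter through the ponatinib libraries alone. The part of these traces in the ligand values was not tested. In such bulk RNA, fewer cells carrying a transcript and less of it per cell cannot be told apart. Neither the labels nor the methods say that the 3 libraries of a group came from separate cultures, so p-values measure the spread between these libraries alone.

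In MDA-MB-231, 9 of the 10 ligand genes passed the filter. Of these, 6 fell with ponatinib (CD274, PDCD1LG2, CD47, NT5E, ENTPD1 and PVR), 1 rose (LGALS9), and CD276 and NECTIN2 were not called. Across all 14610 genes tested in this line, 26.9% were called lower and 27.2% higher. The 3 ponatinib libraries did not overlap the 3 DMSO libraries for 7 of the 9, against 60.4% of all tested genes. LGALS9, counted among the 9, the 7 and the rises, passed the filter through the ponatinib libraries alone, where it is high, so its place in these counts was set by the filter. The median log2 fold change was -0.36 for the 9 ligands and 0.02 over all genes. In 4T1, 8 ligand genes passed the filter: Nt5e, Entpd1 and Pvr fell, Cd274, Nectin2 and Lgals9 rose, and Cd276 and Cd47 were not called. In this line 29.4% of 13286 tested genes were called lower and 29.5% higher. The groups did not overlap for 6 of the 8 ligands, against 63.4% of all genes, and the ligands' median was -0.04 against 0.00. Of the 8 ligands tested in both lines, 3 fell in both and 1 rose in both (LGALS9, with the limit just given). Another 1 went in opposite directions, 2 were called in 1 line and 1 was called in neither. How often genes at large were called in these ways was not counted, so no excess is shown. Over 50% of the tested genes were called in each line, so the sizes of the changes and the individual libraries are given beside the calls.

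**Figure D1:**
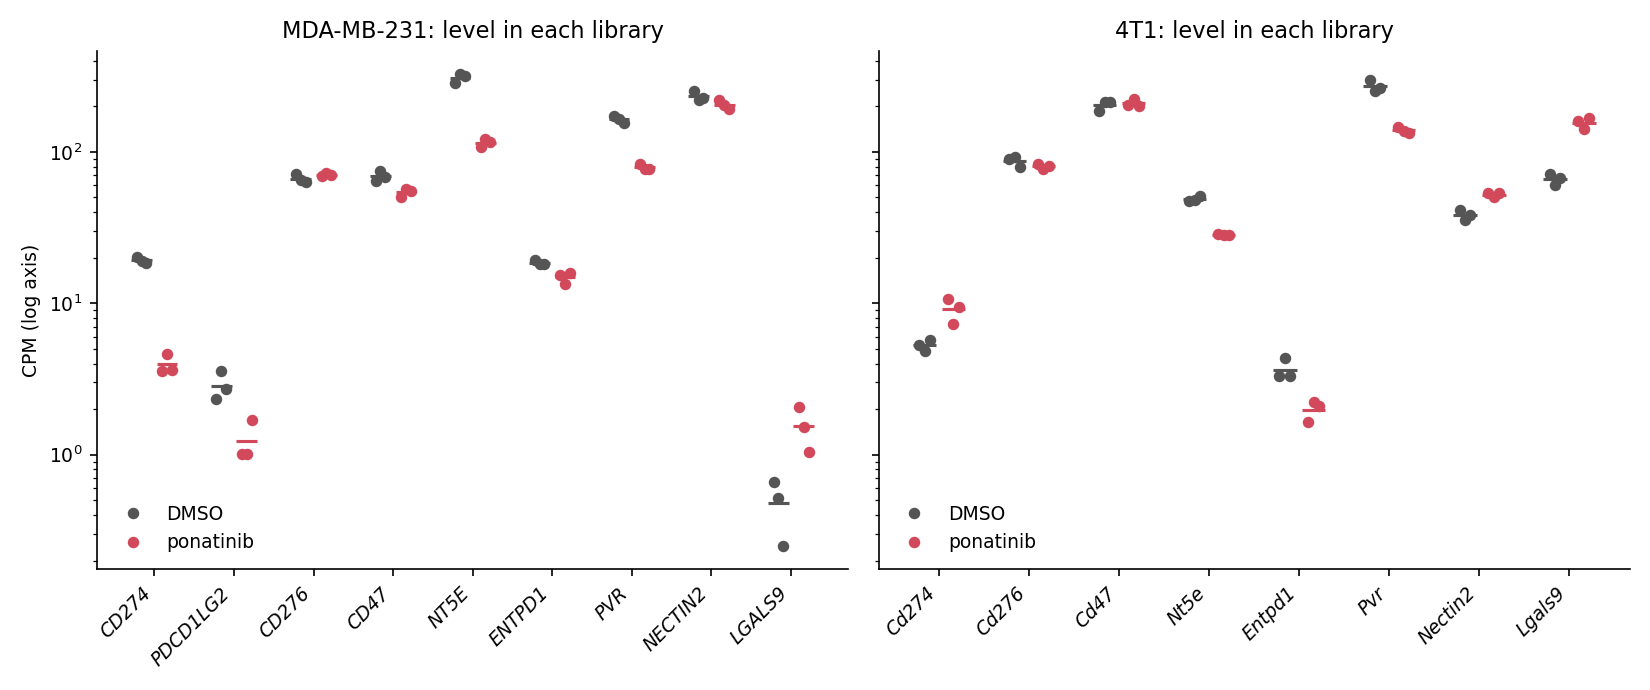
Level of each ligand gene that passed the filter in every library, in CPM on a log axis, with MDA-MB-231 on the left and 4T1 on the right. Dark points are DMSO libraries, red points are ponatinib libraries and bars are group means; CD274 falls from 19.2 to 3.95 CPM in MDA-MB-231 and goes from 5.28 to 9.18 CPM in 4T1.

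CD274 showed the largest fall of the group, and in the main test it was the one ligand to be called in opposite directions in the lines. With the replicate number as a block, NECTIN2 was a further one, at -0.18 in MDA-MB-231 (adjusted p-value 6.49e-04) and 0.45 in 4T1 (adjusted p-value 2.13e-06, edgeR). NECTIN2 was also called lower in MDA-MB-231 without a block when ponatinib replicate 1 was left out (-0.23, adjusted p-value 0.0328, edgeR). For CD274, the DMSO libraries of MDA-MB-231 held 20.1, 19.1 and 18.4 CPM and the ponatinib libraries 3.59, 4.64 and 3.61 CPM. The lowest control library thus stood well above the highest treated one. The means were 19.2 ± 0.833 and 3.95 ± 0.603 CPM (SD, n = 3 each). This was a log2 fold change of -2.28, with an SE of 0.14 and an adjusted p-value of 1.98e-07 in edgeR, or 4.87-fold lower. Only 81 of the 14610 tested genes had a log2 fold change below it. In 4T1, Cd274 stood at 5.27, 4.83 and 5.74 CPM with DMSO and at 10.7, 7.33 and 9.48 CPM with ponatinib. All 3 treated libraries lay above the controls, with more spread among them. The log2 fold change was 0.80 with an SE of 0.17 (adjusted p-value 7.99e-04, edgeR), or 1.74-fold higher, and 13.9% of the tested genes rose by more. The difference between the lines, tested as a line-by-treatment interaction over 9838 genes whose symbols the species share, was 3.08 log2 units (95% interval 2.61 to 3.55, adjusted p-value 7.81e-09 in edgeR).

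One feature of the mouse locus touches this value. The first exon of Cd274 shares 219 bases with an exon of Plgrkt, a plasminogen receptor gene on the opposite strand, and Plgrkt rose from 22.5 to 57.1 CPM in 4T1 (log2 fold change 1.34, adjusted p-value 8.53e-08 in edgeR). Whether counting used the strand is not given in the sources used here, and without it reads from the shared bases cannot be told apart; their part in the rise of Cd274 was not tested. In the human annotation no counted gene shares an exon with CD274. Its neighbor PLGRKT, which starts 12.6 kb upstream, was not called in MDA-MB-231 (log2 fold change -0.31, adjusted p-value 0.0839, edgeR). Both Plgrkt and the values of the other genes within 300 kb were looked up after the ligand values had been seen.

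The sequence just upstream of CD274 is shown because interferon-responsive transcription of this gene runs through it. The human stretch is chr9:5450292-5450502 on the plus strand (211 bases, RefSeq table on GRCh38.p14, ending where the earliest annotated CD274 exon begins). The mouse stretch is chr19:29344279-29344528 on the plus strand (250 bases, GRCm39, ending at the base before the start that GENCODE vM39 gives). Capitals mark matches to the core of an interferon-response element, GAAANNGAAA, which was searched on both strands; all matches here lie on the minus strand, so the letters printed are the reverse complement of the core.
CD274: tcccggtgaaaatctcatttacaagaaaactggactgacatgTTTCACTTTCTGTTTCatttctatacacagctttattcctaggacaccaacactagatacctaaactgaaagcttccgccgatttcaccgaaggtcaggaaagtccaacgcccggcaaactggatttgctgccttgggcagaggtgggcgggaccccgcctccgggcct
Cd274: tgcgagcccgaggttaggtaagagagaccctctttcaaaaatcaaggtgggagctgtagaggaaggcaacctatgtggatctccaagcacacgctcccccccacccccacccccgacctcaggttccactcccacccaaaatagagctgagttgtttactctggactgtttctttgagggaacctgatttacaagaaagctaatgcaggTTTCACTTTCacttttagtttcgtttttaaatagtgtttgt
The human stretch holds 2 overlapping matches, from 208 to 199 and from 202 to 193 bases before the RefSeq start, and the mouse stretch holds 1, from 41 to 32 bases before the start. Among windows of 250 bases before a start, 3.02% of 35116 human ones and 3.32% of 21770 mouse ones hold at least 1 match. In no other ligand gene that had a window did one occur, and human PDCD1LG2 had none in the table. These are matches of letters in short windows and not evidence of binding.

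PDCD1LG2, the second PD-1 ligand, lies next to CD274, with 40.0 kb between the genes on human chromosome 9 and 22.8 kb on mouse chromosome 19. It was sparse in MDA-MB-231, with 35, 55 and 43 counts in the DMSO libraries and 16, 16 and 31 in the ponatinib libraries. The groups did not overlap, although the highest treated library came within 4 counts of the lowest control. On the CPM scale it fell from 2.86 ± 0.634 to 1.24 ± 0.394 (SD, n = 3 each), and its log2 fold change was -1.19 with an SE of 0.30 (adjusted p-value 0.00504, edgeR). In 4T1 the gene was barely detected, with 5 counts over the DMSO libraries and 4 over the ponatinib libraries, a ratio of 0.815 whose counting interval of 0.162 to 3.79 spans a fall and a rise alike.

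Among the genes that carry interferon-γ signals to CD274, the receptor chain gene IFNGR1 rose and the inhibitor gene SOCS3 fell in both lines. In 4T1, 5 of 11 listed genes rose and 3 fell, beside 29.5% and 29.4% of all tested genes. The receptor chains Ifngr2 (59.1 to 107 CPM, log2 fold change 0.85) and Ifngr1 (187 to 328 CPM, 0.81) and the transcription factor Irf1 (50.2 to 84.1 CPM, 0.75) were the largest of these changes in size, with Socs3, a feedback inhibitor that fell (83.7 to 49.2 CPM, -0.77). In MDA-MB-231, 2 of the 11 rose, 1 fell and 8 were not called, beside 27.2% of all tested genes called higher and 26.9% called lower. SOCS3 fell from 55.6 to 27.4 CPM (log2 fold change -1.02), IFNGR1 rose from 19.9 to 31.7 CPM (0.67) and IRF2, a repressor of interferon responses, rose from 22.1 to 30.1 CPM (0.45). The groups overlapped for IRF2, at 21.0, 21.2 and 23.9 CPM with DMSO and 21.5, 33.1 and 35.8 CPM with ponatinib. Its adjusted p-value was 0.034 (edgeR). The lines differed by the interaction test for IFNGR2 (0.94 log2 units, 4T1 minus MDA-MB-231, adjusted p-value 4.09e-05) and IRF1 (0.61, 0.00201, edgeR in both cases). The difference for IFNGR1 was 0.14 with a 95% interval of -0.17 to 0.45. Of the 11 genes, 5 were called in the interaction, a smaller share than the 51.5% of all genes tested, so no difference of the list as a whole was shown.

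Of the other transcription factors listed for CD274, the AP-1 genes JUN and FOSL1 fell furthest in both lines. In MDA-MB-231, 4 of 8 fell and 1 rose, where 26.9% of all tested genes were called lower and 27.2% higher. FOSL1, an AP-1 subunit, fell from 856 to 130 CPM (log2 fold change -2.72), JUN fell from 575 to 199 CPM (-1.53) and the NF-κB subunit NFKB1 fell from 83.2 to 50.3 CPM (-0.73), while FOS rose from 5.86 to 30.4 CPM (2.38). In 4T1, 6 of 8 fell and none rose, where 29.4% of all tested genes were called lower and 29.5% higher. The list's median log2 fold change stood at -0.23 (MDA-MB-231) or -0.34 (4T1), against 0.02 or 0.00 over all genes, and whether the list differs from other genes was not tested. Jun fell from 161 to 18.1 CPM (log2 fold change -3.16), Fosl1 from 683 to 222 CPM (-1.62), Hif1a, the hypoxia-inducible factor, from 286 to 209 CPM (-0.46) and Yap1, the effector of Hippo signaling, from 183 to 141 CPM (-0.37). JUN, FOSL1 and RELA fell in both lines. Their part in the changes of CD274 was not tested. The fall of FOSL1 was larger in MDA-MB-231 (difference 1.10 log2 units, 4T1 minus MDA-MB-231, adjusted p-value 1.13e-06) and that of JUN larger in 4T1 (-1.63, 2.29e-09, edgeR).

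Among 10 genes that act on the PD-L1 protein, 3 fell and 3 rose in MDA-MB-231. Of all genes tested there, 26.9% were called lower and 27.2% higher. In 4T1, 4 of the 10 fell and 1 rose, beside 29.4% and 29.5% of all tested genes. Whether the list differs from other genes was not tested. CMTM6, which protects PD-L1 from lysosomal breakdown, fell from 76.1 to 48.6 CPM in MDA-MB-231 (log2 fold change -0.65), and its relative CMTM4 fell from 13.7 to 9.50 CPM (-0.53). HIP1R, which carries PD-L1 to the lysosome, rose there from 133 to 245 CPM (0.88). STT3A, a subunit of the enzyme that glycosylates PD-L1, fell in both lines, from 290 to 229 CPM in MDA-MB-231 (-0.35) and from 373 to 217 CPM in 4T1 (-0.78). SPOP, an adaptor for PD-L1 ubiquitination, rose in MDA-MB-231 (71.8 to 87.5 CPM, 0.29) and fell in 4T1 (139 to 99.4 CPM, -0.49). Btrc, another ubiquitin ligase adaptor, rose in 4T1 from 27.1 to 41.8 CPM (0.62). None of these values speaks to the amount of PD-L1 protein itself.

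**Figure D2:**
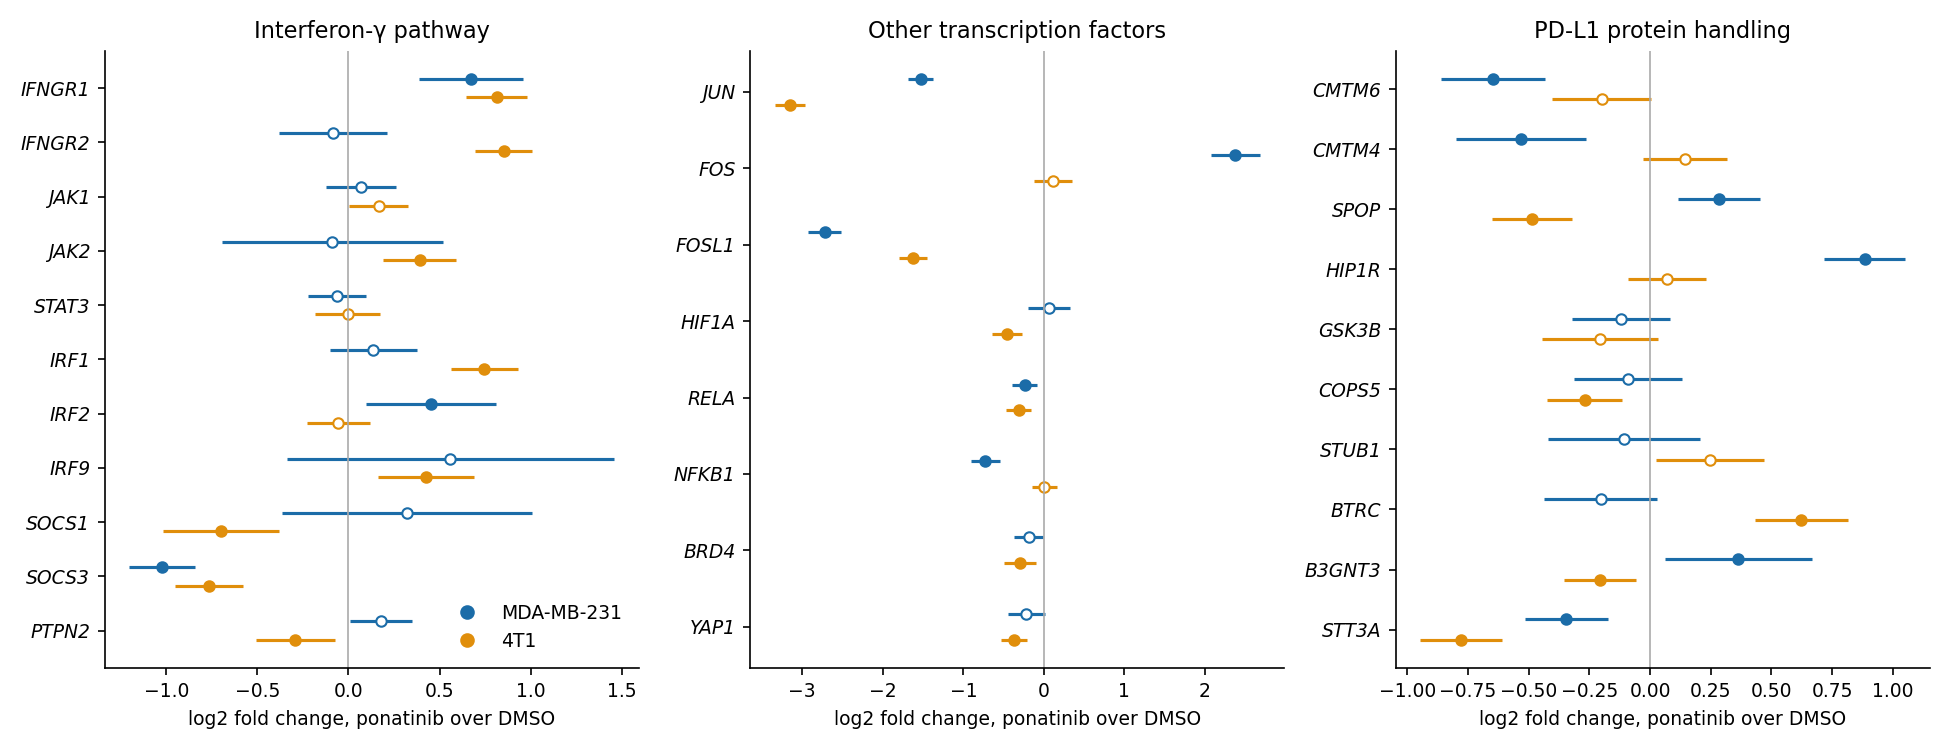
Log2 fold change of ponatinib over DMSO (x axis) for genes of the interferon-γ pathway, other transcription factors at CD274 and genes that act on the PD-L1 protein, with 95% intervals from edgeR. Blue is MDA-MB-231, orange is 4T1, and filled points are called; IRF1 sits at 0.14 (blue) and 0.75 (orange), and JUN and FOSL1 lie below 0 in both.

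The B7 ligand gene CD276 was not called in either line, and VTCN1 was at or near 0 in both. CD276, which encodes an inhibitory ligand common on solid tumors, held 71.2, 65.4 and 63.2 CPM with DMSO and 69.3, 72.6 and 70.3 CPM with ponatinib in MDA-MB-231, and the groups overlapped. Its log2 fold change was 0.09, with a 95% interval of -0.09 to 0.26 (adjusted p-value 0.375, edgeR). In 4T1, Cd276 held 89.9, 93.1 and 79.0 CPM with DMSO and 82.9, 76.9 and 80.3 CPM with ponatinib, again with overlap, and its log2 fold change was -0.13 with an interval of -0.30 to 0.05 (adjusted p-value 0.196). The intervals leave room for changes of at most 0.30 on the log2 scale in either direction. VTCN1 was not detected in the MDA-MB-231 control libraries, where 0 counts allow up to 3 counts, and it had 3 counts in 1 ponatinib library. In 4T1, Vtcn1 had 2, 4 and 2 counts against 4, 6 and 2, too few to test.

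Of 11 other co-signaling ligands of the B7 and TNF families, 6 were tested in MDA-MB-231, and 5 of these rose and none fell, where 27.2% of all tested genes were called higher. CD70 and TNFSF4 are among the 5 and passed the filter through the ponatinib libraries alone, where they are high. Without them, 3 rose and 1 was not called. VSIR, which encodes the inhibitory ligand VISTA, rose from 16.7 ± 1.16 to 83.3 ± 3.48 CPM (SD, n = 3 each; log2 fold change 2.32, adjusted p-value 6.64e-09, edgeR). TNFRSF14 (HVEM), which binds the inhibitory receptor BTLA and the stimulatory ligand LIGHT, rose from 11.8 to 30.1 CPM (1.35), and TNFSF9, the ligand of the T cell receptor 4-1BB, rose from 21.0 to 26.3 CPM (0.32). In 4T1 only 3 of the 11 were tested, all under 10 CPM. Icosl, the ligand of the stimulatory receptor ICOS, had 3, 0 and 6 counts with DMSO and 21, 22 and 19 with ponatinib, a called rise (log2 fold change 2.65, adjusted p-value 8.78e-04, edgeR), but it too passed the filter through the ponatinib libraries alone. Tnfsf9 fell from 9.53 to 6.63 CPM (-0.52), and Vsir had 5 counts over the DMSO libraries and 18 over the ponatinib libraries.

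CD47 fell slightly in MDA-MB-231. The DMSO libraries held 64.5, 74.3 and 68.7 CPM and the ponatinib libraries 50.2, 56.5 and 55.3 CPM, without overlap. The log2 fold change was -0.36 with an SE of 0.09 (adjusted p-value 0.00469, edgeR), or 1.28-fold lower. With scaling to total counts alone, it was -0.26 and missed the threshold with an adjusted p-value of 0.0511. In 4T1, Cd47 held 185, 212 and 215 CPM with DMSO and 204, 224 and 200 CPM with ponatinib. These groups overlapped, and the log2 fold change of 0.04 had an interval of -0.13 to 0.21. The lines differed by 0.40 log2 units (95% interval 0.15 to 0.65, adjusted p-value 0.0100, edgeR).

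Of 8 further genes on CD47 modification and phagocytosis signals, 7 were tested in MDA-MB-231, and 2 of these fell and 3 rose. Among all genes tested in that line, 26.9% were called lower and 27.2% higher. In 4T1, 6 were tested, and 1 fell and 4 rose, beside 29.4% and 29.5% of all tested genes. A difference of this list from other genes was not tested. LRP1, the receptor through which calreticulin on a dying cell is recognized, rose in both lines, from 31.3 to 104 CPM in MDA-MB-231 (log2 fold change 1.73) and from 202 to 560 CPM in 4T1 (1.47). THBS1, which encodes thrombospondin-1, a secreted ligand of CD47, fell from 325 to 128 CPM in MDA-MB-231 (-1.35) and rose from 4.66 to 20.8 CPM in 4T1 (2.16). The interaction for THBS1 was 3.50 log2 units (adjusted p-value 3.97e-10, edgeR). QPCTL, the enzyme that modifies the end of CD47 to which SIRPα binds, rose in MDA-MB-231 from 57.0 to 74.4 CPM (0.39). Cd24a, the mouse counterpart of the CD24 phagocytosis signal, rose from 202 to 351 CPM in 4T1 (0.80), and Calr, which encodes calreticulin, fell there from 672 to 485 CPM (-0.47). B2M, the light chain of major histocompatibility complex class I, went from 603 to 723 CPM with a called rise of 0.26 in MDA-MB-231. In 4T1, B2m was called higher as well (log2 fold change 0.46).

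ENTPD1 and NT5E, whose enzymes together make adenosine outside the cell, were called lower in both lines by the main test. ENTPD1 (CD39) removes phosphates from ATP and ADP and NT5E (CD73) turns the AMP into adenosine. NT5E had the highest CPM of the ligand genes in the MDA-MB-231 controls, with 285, 325 and 315 CPM. With ponatinib it held 107, 122 and 116 CPM. The groups lay far apart, with a log2 fold change of -1.42 and an SE of 0.08 (adjusted p-value 1.24e-07, edgeR), or 2.68-fold lower, and 2.05% of the tested genes fell by more. In 4T1, Nt5e held 47.0, 48.4 and 51.4 CPM against 28.7, 28.2 and 28.2 CPM. It fell by 0.79 on the log2 scale with an SE of 0.08 (adjusted p-value 1.96e-06, edgeR). The fall was smaller in 4T1 by 0.64 log2 units (95% interval 0.41 to 0.86, adjusted p-value 1.11e-04, edgeR).

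ENTPD1 changed less surely. In MDA-MB-231 it held 19.3, 18.2 and 18.1 CPM with DMSO and 15.4, 13.4 and 15.9 CPM with ponatinib, without overlap. Its log2 fold change was -0.32 with an SE of 0.11 (adjusted p-value 0.0313, edgeR). DESeq2 gave -0.34 with an adjusted p-value of 0.0647, scaling to total counts gave -0.22 with 0.139, and the call was also lost without DMSO replicate 1, 2 or 3 or without ponatinib replicate 2. In 4T1, Entpd1 had 58, 78 and 61 counts with DMSO and 32, 43 and 39 with ponatinib, a log2 fold change of -0.88 with an SE of 0.23 (adjusted p-value 0.00427, edgeR). The lines differed by -0.56 log2 units with an adjusted p-value of 0.0446, which 10 of 17 alternative analyses did not keep under the threshold.

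The rest of the adenosine pathway did not move one way. Of 17 genes listed, 11 were tested in MDA-MB-231, and 5 of these fell and 6 rose. Over all genes tested in this line, 26.9% were called lower and 27.2% higher. In 4T1, 14 were tested, and 4 fell and 8 rose, beside 29.4% and 29.5% of all tested genes. No test compared the list with genes at large. Leaving out the 2 genes (MDA-MB-231) and 4 genes (4T1) that passed the filter through 1 group alone, 4 fell and 5 rose in MDA-MB-231, and 4 fell and 5 rose in 4T1. Among the receptors, ADORA2B fell from 125 to 46.9 CPM in MDA-MB-231 (log2 fold change -1.42), and Adora2a fell from 106 to 61.9 CPM in 4T1 (-0.77). Adora2b in 4T1 went the other way, from 1, 2 and 2 counts to 14, 27 and 12 (3.22, adjusted p-value 2.69e-04, edgeR), again through the ponatinib libraries alone, and the interaction for this gene was 4.64 (adjusted p-value 2.04e-07). ADORA1, an inhibitory adenosine receptor, rose in both lines, from 21.1 to 51.3 CPM in MDA-MB-231 (1.28) and from 4.78 to 10.9 CPM in 4T1 (1.19). The nucleoside transporter SLC29A1, through which adenosine enters the cell, fell in both, from 250 to 129 CPM (-0.95) and from 202 to 120 CPM (-0.75), while SLC29A2 rose in MDA-MB-231 from 28.4 to 59.8 CPM (1.08). Enzymes that reach AMP or adenosine by other routes moved both ways in 4T1: the ectonucleotidase Enpp3 went from 10.9 to 26.7 CPM (1.29) and the alkaline phosphatase Alpl from 5.29 to 10.8 CPM (1.03), while the ectonucleotidase Enpp1 fell from 100.5 to 68.7 CPM (-0.55). The plot of the pathway shows 5 genes, ENPP1, PANX1, ADORA2B, SLC29A2 and ADK, called in opposite directions in the lines. The share of all genes so called was not counted. ADORA2B is among the 5 through a 4T1 rise whose place was set by the filter, a limit that also bears on its interaction.

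**Figure D3:**
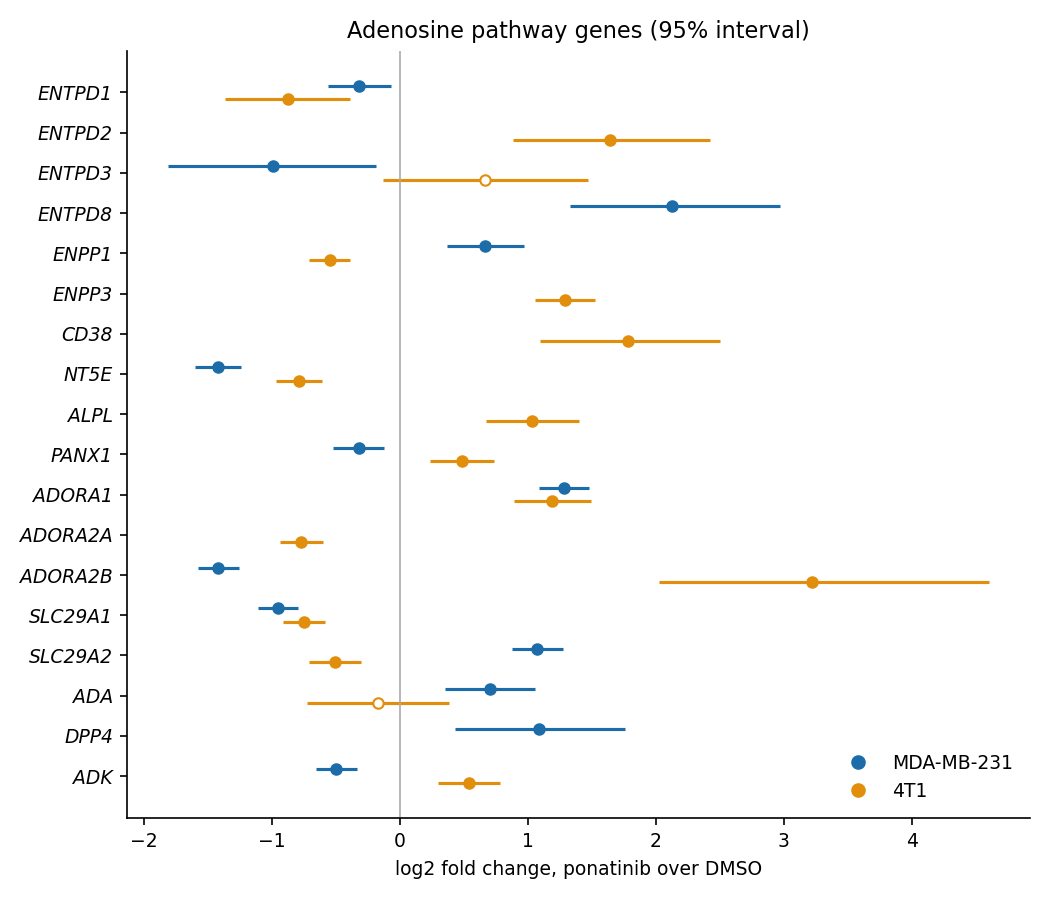
Log2 fold change of ponatinib over DMSO (x axis) for genes of extracellular adenosine formation, sensing, uptake and breakdown, with 95% intervals from edgeR; blue is MDA-MB-231, orange is 4T1, filled points are called, and a gene below the filter in a line has no point there. ENTPD1 and NT5E lie below 0 in both lines, and the other genes fall on either side.

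PVR, the ligand of TIGIT and of the stimulatory receptor CD226, fell to a similar degree in both lines. In MDA-MB-231 it held 171, 166 and 155 CPM with DMSO and 83.7, 76.9 and 77.2 CPM with ponatinib. In 4T1, Pvr held 297, 253 and 262 CPM against 147, 136 and 134 CPM. Every treated library lay far below every control in both lines. The log2 fold changes were -1.05 with an SE of 0.08 in MDA-MB-231 (adjusted p-value 7.71e-07) and -0.96 with an SE of 0.08 in 4T1 (adjusted p-value 1.51e-07, edgeR). Their difference was 0.09 with a 95% interval of -0.15 to 0.32, so that a gap of more than 0.32 log2 units between the lines lay outside it. Of all tested genes, 4.62% fell by more in MDA-MB-231 and 5.32% did in 4T1. The exons of human PVR share 121 bases with CEACAM19, whose log2 fold change was 0.21 and which was not called.

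NECTIN2, the partner ligand on the same chromosome, did not follow PVR. The genes lie 180.0 kb apart on human chromosome 19 and 153.1 kb apart on mouse chromosome 7. In MDA-MB-231, NECTIN2 held 253, 218 and 226 CPM with DMSO and 220, 205 and 191 CPM with ponatinib, and the groups overlapped. The log2 fold change was -0.18 with a 95% interval of -0.36 to 0.01 (adjusted p-value 0.0942, edgeR). With the replicate number as a block, it was -0.18 with an adjusted p-value of 6.49e-04, so the call depends on whether the libraries are paired. In 4T1, Nectin2 held 41.5, 35.3 and 38.3 CPM with DMSO and 53.3, 50.0 and 53.4 CPM with ponatinib, without overlap. It rose by 0.45 on the log2 scale with an SE of 0.09 (adjusted p-value 4.88e-04, edgeR). The lines differed by 0.62 log2 units (95% interval 0.37 to 0.87, adjusted p-value 3.04e-04, edgeR). Among 8 other nectins and nectin-like molecules, 1 of 4 tested fell in MDA-MB-231 and none rose, where 26.9% of all tested genes were called lower. In 4T1, 2 of 5 rose and 1 fell, where 29.5% of all tested genes were called higher and 29.4% lower. NECTIN1, an adhesion molecule, fell from 27.7 to 20.5 CPM in MDA-MB-231 (-0.44) and rose from 12.6 to 20.3 CPM in 4T1 (0.69), and the interaction was 1.12 (adjusted p-value 2.01e-05, edgeR). Cadm1, a nectin-like molecule, rose in 4T1 from 175 to 219 CPM (0.32), and Afdn, the scaffold that anchors nectins to actin, fell from 235 to 195 CPM (-0.27).

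LGALS9 rose in both lines from very different levels. In 4T1, Lgals9 held 71.5, 60.7 and 67.6 CPM with DMSO and 160, 142 and 167 CPM with ponatinib, and every treated library was far above every control. The log2 fold change was 1.23 with an SE of 0.09 (adjusted p-value 2.43e-08, edgeR), or 2.35-fold higher, and 6.65% of the tested genes rose by more. In MDA-MB-231 the gene had 10, 8 and 4 counts with DMSO and 33, 24 and 19 with ponatinib. It passed the filter only through the ponatinib libraries, so a difference was to be found among genes so chosen. Its log2 fold change was 1.68 with an SE of 0.43 (adjusted p-value 0.00554, edgeR), and it was removed by a filter that asked for 10 or more counts in all libraries. Near-identical copies share its sequence: LGALS9C had 19, 17 and 16 counts with DMSO and 32, 15 and 27 with ponatinib, and LGALS9B had at most 4 counts in any library, so the human value is uncertain. The difference between the lines was -0.44 with a wide interval of -1.28 to 0.36.

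Of 7 other galectin genes, 2 of 4 tested rose in MDA-MB-231 and none fell, where 27.2% of all tested genes were called higher. In 4T1, 2 of 5 rose and 1 fell, where 29.5% of all tested genes were called higher and 29.4% lower. LGALS3BP, a secreted binding partner of galectin-3, rose in both lines, from 891 to 1344 CPM in MDA-MB-231 (log2 fold change 0.59) and from 601 to 1160 CPM in 4T1 (0.95). LGALS3 (galectin-3) rose in MDA-MB-231 from 117 to 256 CPM (1.13) and fell from 1144 to 940 CPM in 4T1 (-0.28). Lgals4, a galectin of the gut epithelium, rose in 4T1 from 133 to 551 CPM (2.05), more than Lgals9.

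**Figure D4:**
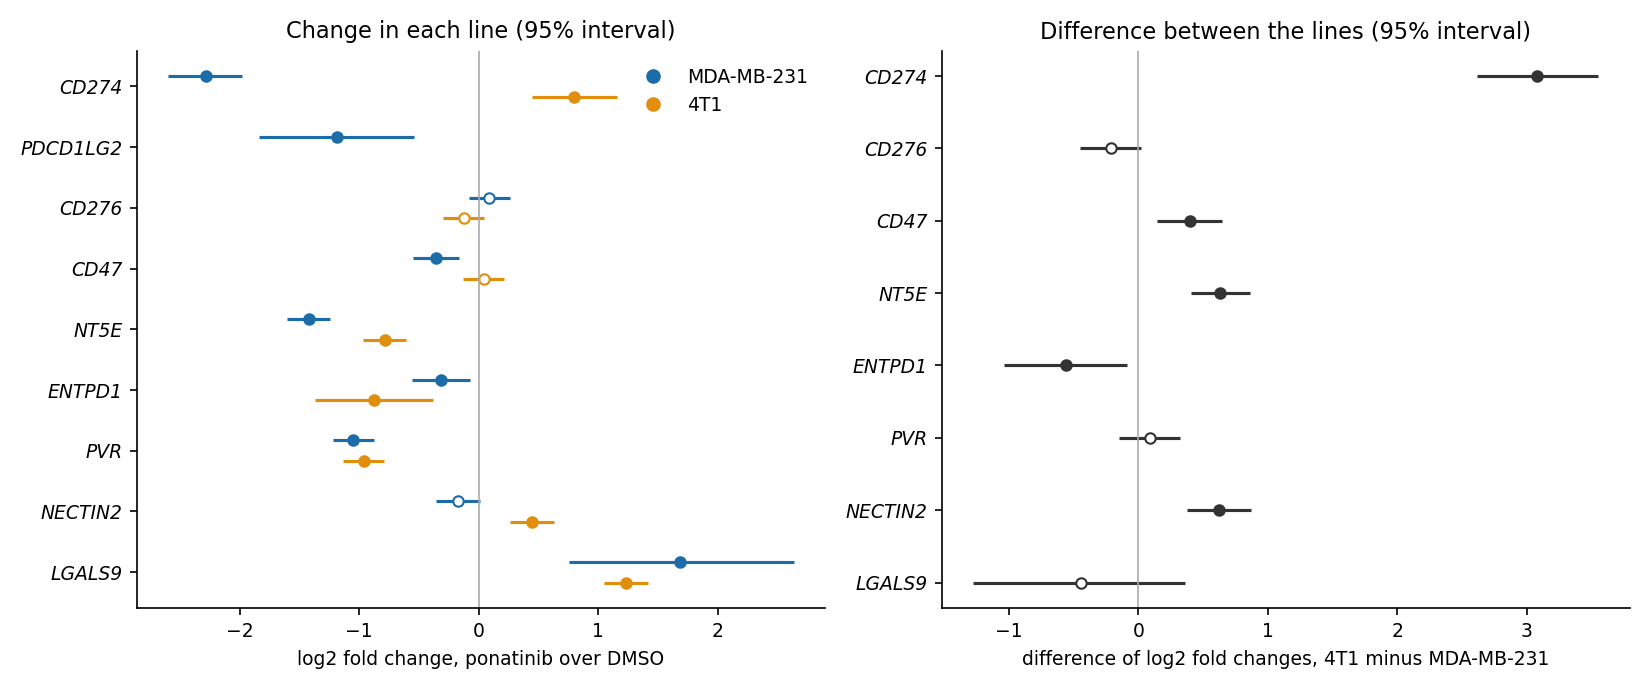
Left, log2 fold change of ponatinib over DMSO for each ligand gene in MDA-MB-231 (blue) and 4T1 (orange); right, the difference of the log2 fold changes, 4T1 minus MDA-MB-231, with 95% intervals from edgeR and filled points where called. CD274 stands apart on the right at 3.08, while the interval of PVR covers 0.

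The interaction test placed the 8 ligands measured in both lines side by side, and 5 were called (CD274, NECTIN2, NT5E, CD47 and ENTPD1), against 51.5% of the 9838 genes tested. For CD276 the difference was -0.21 with an adjusted p-value of 0.125, and with the replicate number as a block the adjusted p-value was 0.0493. All of these changes are relative to the bulk of genes that TMM holds level. With scaling to total counts alone, the median change over all genes moved to 0.11 log2 units in MDA-MB-231 and 0.12 for 4T1. The calls then leaned upward, from near balance to 3102 falls beside 4634 rises (MDA-MB-231) and 2936 beside 4853 (4T1). None of the ligands changed direction under that scaling.

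The lines also differed in which ligands they carried. Per kilobase of exon, the DMSO levels in MDA-MB-231 ran from NT5E at 68.0 ± 4.55 and NECTIN2 at 62.1 ± 4.85 CPM per kilobase (SD, n = 3), whose libraries overlapped, through PVR at 15.7, CD276 at 12.1, CD47 at 8.40 and CD274 at 4.68 to ENTPD1 at 1.29, PDCD1LG2 at 1.18, LGALS9 at 0.0835 and VTCN1 at 0. ENTPD1 and PDCD1LG2 overlapped as well. In 4T1, Pvr led with 43.4 ± 3.72 CPM per kilobase, followed by Lgals9 at 29.3, Cd47 at 23.2, Cd276 at 17.02, Nectin2 at 9.52, Nt5e at 5.58, Cd274 at 1.29 and Entpd1 at 0.513. Neighbors in that order did not overlap down to Entpd1, and Vtcn1 at 0.0543 and Pdcd1lg2 at 0.0406 overlapped at the bottom. After ponatinib, CD274 stood at 0.961 CPM per kilobase in MDA-MB-231 and at 2.25 in 4T1, so that the order of the lines for this gene turned around. These levels rest on the exon lengths of the GENCODE annotation, in different species and different count tables, and comparisons of levels between the lines are given without a test.

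**Figure D5:**
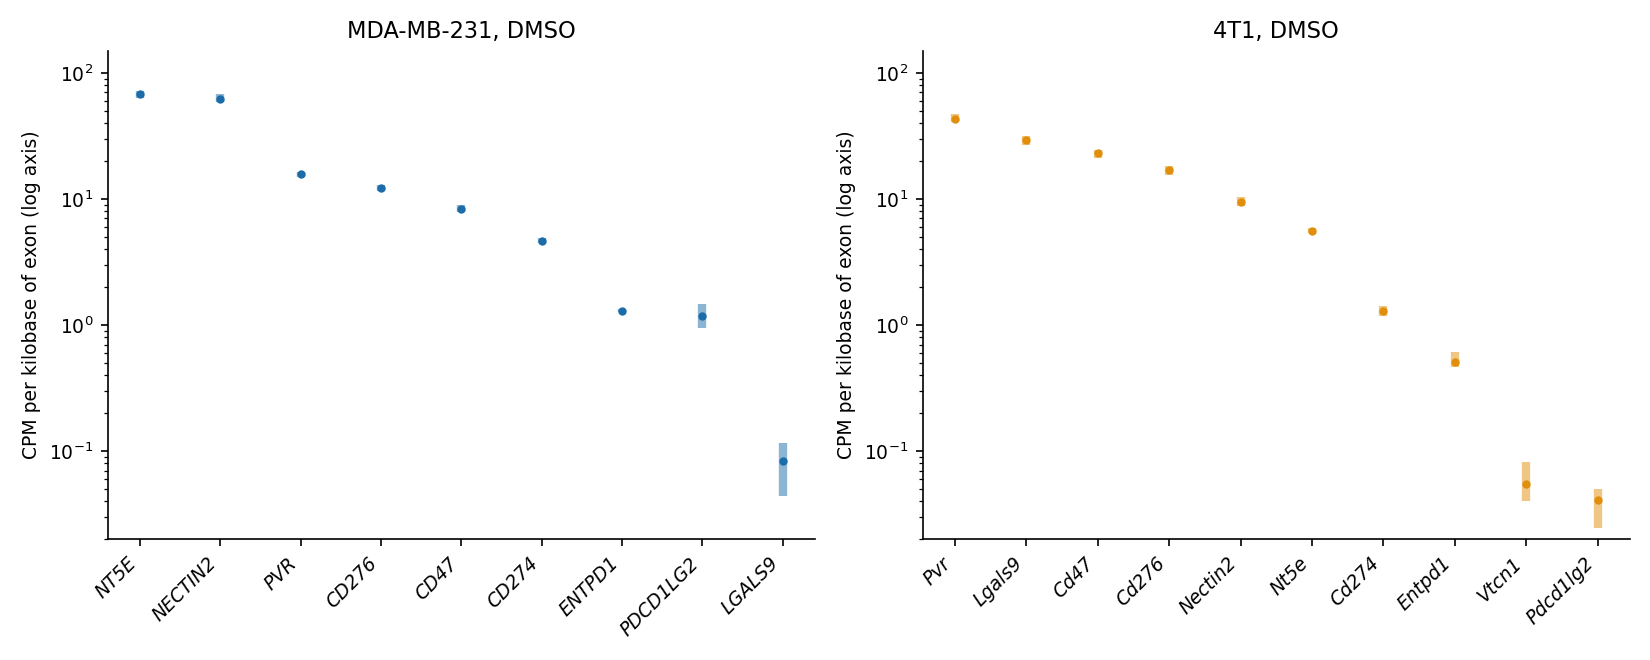
DMSO level of each ligand gene in CPM per kilobase of exon (y axis, log scale), ordered by level, with MDA-MB-231 on the left and 4T1 on the right. Points are means and bars span the 3 libraries; VTCN1, at 0 in MDA-MB-231, is not drawn. NT5E and NECTIN2 lead in MDA-MB-231 at 68.0 and 62.1, and Pvr leads in 4T1 at 43.4.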

How the data were processed

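Gene-level counts of 12 RNA-seq libraries were used as the authors deposited them: reads aligned with HISAT2 to hg38 or GRCm39 and counted per gene with HTSeq, as whole-number counts without normalization. Tool versions, annotation and strand setting are not given in the sources used here. Names, coordinates and exon lengths came from GENCODE v44 and vM39, which matched 81.95% of the human and 91.07% of the mouse identifiers (99.32% and 99.79% of the counts). Libraries were grouped by their labels. Within each line, counts were filtered (filterByExpr), scaled by TMM and tested with the quasi-likelihood test of edgeR 4.0.16 in R 4.3.3, with Benjamini-Hochberg adjustment over all genes tested. The interaction of line and treatment was fitted over shared symbols. SEs were derived from the F statistic, and counting intervals, which cover counting error only, are at 95%. The steps were tested on simulated data. The ligands and the other gene lists were chosen with earlier results of these data known. A gene left out of each of 2 lists, and 2 other motifs searched upstream of the ligand genes, are not reported here. All ligands are named; from each other list, up to 4 called genes with the largest changes and a group mean of 10 CPM or more are named, and any further gene was chosen after its values were seen.

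Replicate numbers were taken to pair the libraries because deviations from the group means correlated above 0.1 for every number (0.498, 0.175 and 0.218 in MDA-MB-231; 0.278, 0.185 and 0.153 in 4T1); the labels do not say what a number marks. The main tests, within and between the lines, left this pairing out. It entered only the fits named as having a replicate block. Alternatives were DESeq2 1.42.0, its size factors in edgeR, total counts, no filter and 10 or more counts required in all libraries. Others were a replicate block, each library left out in turn and, for levels, the longest transcript as the length.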

Additional observations from a re-analysis of the deposited data

Results flagged for a closer look

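The effect of ponatinib differed between MDA-MB-231 and 4T1 by the interaction test for 5 of the 8 ligand genes tested. The same test called 51.5% of all 9838 genes, so no excess among the ligands is shown. Differences are given as 4T1 minus MDA-MB-231 on the log2 scale. CD274 differed by 3.08, falling in all 3 treated libraries of MDA-MB-231 below all 3 controls and rising in all 3 of 4T1 above them. NECTIN2 differed by 0.62, being called higher in 4T1 and not called in MDA-MB-231. NT5E differed by 0.64 and fell in both lines. CD47 differed by 0.40, being called lower in MDA-MB-231 and not called in 4T1. ENTPD1 differed by -0.56, fell in both lines and had the least stable difference of the 5.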

How the results depend on the processing

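The falls of CD274, PDCD1LG2, NT5E and PVR in MDA-MB-231, those of Nt5e, Entpd1 and Pvr in 4T1 and the rises of Cd274, Nectin2 and Lgals9 kept their direction and their call under all 12 alternatives run for each; the extremes for CD274 were -2.42 and -2.19 (MDA-MB-231) or 0.67 and 0.94 (4T1), and those of its difference, over 17 alternatives, 2.95 and 3.22. LGALS9 in MDA-MB-231 did so in the 11 that gave a value: with at least 10 counts in every library it was not tested, and 0 ligands were called higher. The number called lower in MDA-MB-231 was 4 to 7. CD47 there lost its call with total counts, and ENTPD1 lost it in 6 of 12. The log2 fold change of Cd47 in 4T1 was -0.03 without DMSO replicate 1 and -0.01 without ponatinib replicate 2, with a range of -0.030 to 0.077 over the libraries left out. NECTIN2 in MDA-MB-231 was called without ponatinib replicate 1 (-0.23, adjusted p-value 0.0328, edgeR), and the difference for CD276 without 4T1 DMSO replicate 3 (-0.28, adjusted p-value 0.0472). The causes were not tested. The replicate block changed the call of NECTIN2 in MDA-MB-231 (-0.18) and of the difference for CD276 (-0.21) and no other ligand call. Lengths from the longest transcript raised levels per kilobase and put NECTIN2 (86.4) above NT5E (78.7); Pvr in 4T1 went to 91.4 and Nt5e to 11.8. VTCN1, Pdcd1lg2 and human LGALS9 are limited by their counts.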

Other observations

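Of 7 receptors of the ligands, 6 fell below the filter in MDA-MB-231. For 4T1 the number was 3, and 1 more had no matched identifier. In 4T1, Tigit, the inhibitory receptor of Pvr and Nectin2 and a gene chosen after its values were seen, had 158, 176 and 165 counts with DMSO and 20, 15 and 19 with ponatinib. It went from 9.25 ± 0.457 to 0.942 ± 0.145 CPM (SD, n = 3 each; log2 fold change -3.29, adjusted p-value 4.55e-09, edgeR), and 45 of the 13286 tested genes fell by more. The lymphocyte genes Cd3e, Ms4a1, Cd226 and Pdcd1 were at 0 in all 6 libraries. They are part of their lists only: 2 of the 7 receptors and 4 of the 7 leukocyte markers were at 0 throughout in 4T1. Havcr2, the gene of the galectin-9 receptor TIM-3, passed the filter there and was not called (log2 fold change -0.11). Human TIGIT had no count in the MDA-MB-231 controls and 1 count in each of 2 ponatinib libraries. RGMB, a binding partner of PD-L2, fell in MDA-MB-231 from 131 to 45.2 CPM (log2 fold change -1.53) and stood at 14.3 and 11.6 CPM in 4T1 (-0.31, adjusted p-value 0.0703, edgeR), a difference of 1.22 between the lines (adjusted p-value 4.58e-06).

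CD70, a stimulatory ligand of the TNF family, had 1 count over the 3 DMSO libraries of MDA-MB-231 and 35, 33 and 44 counts in the ponatinib libraries, and was at 0 in all 6 libraries of 4T1. It too was chosen after its values were seen.

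The marker genes of the lines moved both ways. In MDA-MB-231, KRT8 rose from 889 to 1636 CPM and EPCAM from 6.43 to 8.55 CPM among 4 epithelial markers tested, and KRT18 and KRT14 were not called. Of 3 mesenchymal genes there, VIM fell from 1287 to 816 CPM and ZEB1 from 19.82 to 13.98 CPM, while the matrix gene FN1 rose from 123 to 206.5 CPM. In 4T1, Krt8 rose from 2386 to 2816 CPM, Krt18 fell from 3243 to 2236 CPM, and Epcam, Cdh1 and Krt14 were not called. Fn1 fell there from 3411 to 969 CPM and Zeb1 from 93.1 to 72.5 CPM, and Vim was not called. ERBB2, which encodes HER2, rose in MDA-MB-231 from 98.0 to 172 CPM, and ESR1 had at most 2 counts in any library there. Esr1 in 4T1 went from 3.41 to 6.33 CPM, with no count of Pgr. Of the endothelial and fibroblast markers, COL1A1 rose in both lines, from 27.8 to 74.8 CPM in MDA-MB-231 and from 3.42 to 8.21 CPM in 4T1, whereas COL1A2 had at most 2 counts in any library. The other 2 tested in 4T1 fell, Kdr from 3.42 to 0.816 CPM and Pdgfra from 2.86 to 1.55 CPM, and KDR was not called in MDA-MB-231.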
